A study of Mus musculus with 6 samples.

Results

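The neutrophil granule genes described here are Ngp, S100a8, S100a9, Camp, Ltf, Lcn2, Mpo, Elane, Retnlg and Chil3, the last under its older symbol Chi3l3 in the selection. They were selected by symbol, and each had to be matched by a probe set that the platform annotation assigns to exactly 1 gene. All 10 were found, each with 1 probe set, among 19943 mouse genes measured. The selection was made with the values of the same 6 arrays in view, so the differences between groups given for these genes are a description and were not tested.

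The arrays held total RNA of mouse NK (natural killer) cells, which are cytotoxic lymphocytes of innate immunity. Of the 6 Affymetrix arrays, 3 held IL-18 generated cells, which had been isolated on NK1.1, grown overnight with IL-18 at 25 ng/ml and IL-2 at 300 IU, and sorted for NK1.1 and c-kit and against CD3 and CD11b. The other 3 held unstimulated cells, sorted for NK1.1 and CD11b and against CD3 and c-kit. The labels attach the same culture text to all 6 samples and do not say whether the unstimulated cells were cultured or received IL-2. The labels give no mouse strain, age or sex. The design text calls the 3 preparations of each kind independent, and all spreads below are spreads between these arrays.

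Neutrophils are short-lived phagocytes that store antimicrobial proteins in granules built in sequence during maturation in the bone marrow. Azurophil (primary) granules are filled first, at the promyelocyte stage, with myeloperoxidase and serine proteases. Specific (secondary) and gelatinase (tertiary) granules follow, with lactoferrin, lipocalin and cathelicidin, under transcription factors of the C/EBP family. Mature neutrophils carry CD11b and lack NK1.1, whereas NK cells make granules of another kind, filled with perforin and granzymes. CD11b was selected for in the unstimulated gate and against in the IL-18 gate, so the stimulus, the culture and the gate cannot be told apart in any difference below. In bulk RNA, fewer cells of a type and less RNA per cell cannot be told apart either.

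Values are log2 differences from the probe set's own median across the 6 arrays, so they show no expression level. A gene that is lower in every IL-18 array than in any unstimulated array has its highest IL-18 value and its lowest unstimulated value mirrored around 0 by this centring. Genes of the sort followed the gates. Itgam, which encodes CD11b, was lower in the IL-18 generated cells (log2 change -5.32 ± 0.11, where each error given after a change is its SE with n = 3 arrays in a group) and Kit, which encodes c-kit, was higher (2.79 ± 0.13). The NK cell genes Klrb1c, which encodes the NK1.1 antigen, and Ncr1, the receptor NKp46, were lower (-2.03 ± 0.11 and -0.98 ± 0.09), and whether they or any other cell type marker were at background on an array cannot be read from centred values.

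All 10 neutrophil granule genes were lower in every IL-18 array than in any unstimulated array. Their changes ran from -0.62 to -5.66 with a median of -2.99, beside a median of -0.06 over all genes. The limma fit at an adjusted p below 0.05 called all 10 lower, where it called 16.7% of all genes lower and 36.4% in either direction, and 9 of the 10 passed a change of -1 as well, where 3.24% of all genes did. Groups not overlapping in this direction made up 25.7% of all genes. Since the genes were selected on this contrast, nothing is read from these counts.

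Ngp encodes neutrophilic granule protein, a cathelicidin relative of specific granules. In the unstimulated replicates 1, 2 and 3 it read 2.39, 3.84 and 2.79, and in the IL-18 replicates -2.39, -2.43 and -3.15. The groups were 4.78 apart at their closest, the widest separation among the 10, and the change was -5.66 ± 0.32. Camp encodes cathelicidin itself, the precursor of an antimicrobial peptide. It read 0.37, 1.57 and 0.68 in the unstimulated arrays and -0.37, -0.53 and -0.67 in the IL-18 arrays. Its change of -1.39 ± 0.24 was much smaller than that of Ngp, although the order of the unstimulated arrays was the same.

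Ltf encodes lactoferrin, the iron-binding protein of specific granules. It read 0.83, 2.47 and 1.28 in unstimulated replicates 1, 2 and 3 and -0.83, -0.86 and -0.83 in the IL-18 replicates, a change of -2.37 ± 0.32. The IL-18 arrays were nearly equal, with an SD of 0.02, against 0.85 in the unstimulated ones. Lcn2 encodes lipocalin 2, which binds bacterial siderophores and so withholds iron from microbes. It read 1.21, 2.73 and 1.82 in the unstimulated arrays and -1.52, -1.21 and -1.37 in the IL-18 arrays, a change of -3.28 ± 0.29. Unstimulated replicate 2 was again the highest and replicate 1 the lowest of its group.

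S100a8 and S100a9 encode the subunits of calprotectin, a metal-binding complex that fills the cytosol of neutrophils rather than their granules and is also made by monocytes. S100a8 read 1.17, 2.84 and 1.51 in unstimulated replicates 1 to 3 and -1.24, -1.17 and -1.33 in the IL-18 replicates, a change of -3.09 ± 0.33. For S100a9 the unstimulated values were 1.28, 3.04 and 1.56 and the IL-18 values -1.49, -1.28 and -1.43, a change of -3.36 ± 0.35. The subunit genes thus had the same order of unstimulated arrays, and changes that differed by less than their standard errors.

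Mpo encodes myeloperoxidase, which makes hypochlorous acid, and Elane encodes neutrophil elastase, both contents of azurophil granules. Mpo read 1.81, 3.21 and 0.84 in unstimulated replicates 1, 2 and 3 and -1.56, -0.84 and -1.42 in the IL-18 replicates, a change of -3.23 ± 0.46. The values of Elane were 1.37, 2.99 and 0.86 in the unstimulated arrays and -0.86, -0.93 and -1.63 in the IL-18 arrays, a change of -2.88 ± 0.44. In both genes unstimulated replicate 3 was the lowest of its group, whereas in Ngp, Camp, Ltf, Lcn2, S100a8, S100a9 and Chil3 replicate 1 was. Their standard errors were also the largest of the 10.

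Chil3 encodes Ym1, a chitinase-like lectin of neutrophil granules that macrophages make too. It read 0.99, 2.09 and 1.69 in the unstimulated arrays and -0.99, -1.0 and -1.09 in the IL-18 arrays, a change of -2.62 ± 0.21. Retnlg encodes resistin-like gamma, a secreted protein of mature neutrophils. Its values were 0.19, 0.82 and 0.18 in unstimulated replicates 1 to 3 and -0.18, -0.25 and -0.25 in the IL-18 replicates, a change of -0.62 ± 0.15. Retnlg had the narrowest separation of the 10, with 0.35 between its groups at their closest.

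**Figure D1:**
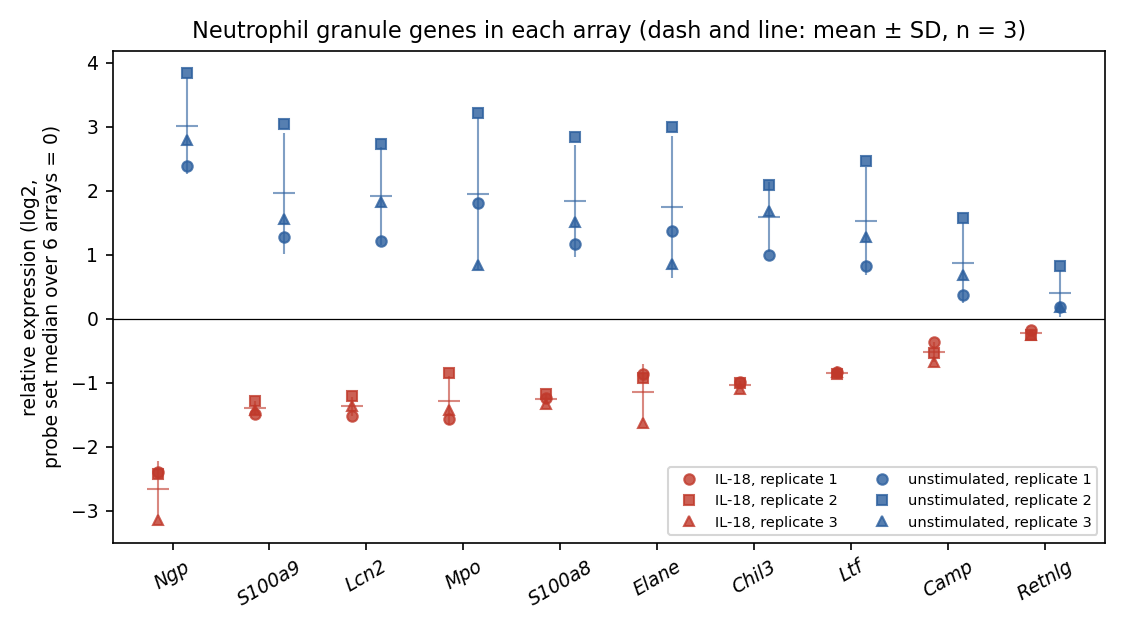
Relative expression (log2, probe set median over the 6 arrays at 0) of the 10 neutrophil granule genes in each of the 3 IL-18 (red) and 3 unstimulated (blue) arrays, with the mean and SD of each group, ordered by change. The groups do not overlap for any gene, unstimulated replicate 2 (blue squares) is the highest array for all 10, and the blue values spread more widely than the red ones.

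The promoters of these genes are shown because C/EBP factors and PU.1, an ETS factor of myeloid cells, are known regulators of granule genes. The sequences below cover the 250 bases before the start site, from RefSeq on GRCm38.p6, written 5′ to 3′ on the strand of the gene. Capitals mark the letters TTGCNNAA, a C/EBP motif, and GAGGAA, a PU.1 motif, on either strand. Ngp, Ltf and Lcn2 stand for the specific granule genes, S100a8 for calprotectin and Elane for the azurophil granule genes.
Ngp (chr9:110419558-110419807, strand +): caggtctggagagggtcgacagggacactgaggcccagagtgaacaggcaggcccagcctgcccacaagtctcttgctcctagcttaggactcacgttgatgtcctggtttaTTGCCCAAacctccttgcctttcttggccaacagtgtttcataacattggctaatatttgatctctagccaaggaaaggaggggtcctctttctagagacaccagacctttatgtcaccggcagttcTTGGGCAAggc
Ltf (chr9:111019042-111019291, strand +): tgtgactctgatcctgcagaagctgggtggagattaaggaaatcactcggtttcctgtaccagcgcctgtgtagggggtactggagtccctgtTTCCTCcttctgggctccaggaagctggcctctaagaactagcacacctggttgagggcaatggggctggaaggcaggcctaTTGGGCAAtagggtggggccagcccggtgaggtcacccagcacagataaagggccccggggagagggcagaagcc
Lcn2 (chr2:32387740-32387989, strand -): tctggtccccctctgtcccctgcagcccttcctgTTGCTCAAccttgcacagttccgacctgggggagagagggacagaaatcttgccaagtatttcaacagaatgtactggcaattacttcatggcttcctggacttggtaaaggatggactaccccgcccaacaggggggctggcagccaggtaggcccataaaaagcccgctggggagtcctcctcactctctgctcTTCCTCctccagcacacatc
S100a8 (chr3:90668821-90669070, strand +): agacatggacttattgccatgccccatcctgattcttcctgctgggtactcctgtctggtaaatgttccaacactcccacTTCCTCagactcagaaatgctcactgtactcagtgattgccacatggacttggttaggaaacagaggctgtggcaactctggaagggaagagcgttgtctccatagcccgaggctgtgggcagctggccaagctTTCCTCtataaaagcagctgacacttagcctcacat
Elane (chr10:79886062-79886311, strand +): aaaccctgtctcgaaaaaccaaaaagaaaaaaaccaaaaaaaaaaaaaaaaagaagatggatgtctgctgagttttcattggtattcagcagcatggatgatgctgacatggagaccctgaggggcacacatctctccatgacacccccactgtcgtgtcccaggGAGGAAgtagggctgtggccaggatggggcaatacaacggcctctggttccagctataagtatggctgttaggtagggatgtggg

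The C/EBP motif was present in 5 of the 10 promoters, those of Ngp, Ltf, Lcn2, S100a9 and Retnlg, and in 9.56% of the 32851 mouse promoter windows of the same length. Ngp held it at -138 and -11 from the start site and Ltf at -75. The PU.1 motif was present in 5 of the 10, those of Elane, Mpo, Lcn2, Ltf and S100a8, and in 23.3% of all windows. Ltf and Lcn2 held both motifs, which do not overlap there, and the windows of Camp and Chil3 held neither. The RUNX motif TGTGGT, on either strand, was found in the window of S100a9 alone (14% of all windows), and TATAAA on the gene's strand in that of S100a8 alone, at -30 (7.59% of all windows). These are matches of letters, and binding was not measured.

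Among the 3 unstimulated arrays, replicate 2 had the highest value for all 10 genes. Over all genes replicate 2 was the highest of the 3 for 34.2%, replicate 1 for 30.3% and replicate 3 for 35.4%. Replicate 2 was also the highest for 55.3% of the 647 genes that fell by at least 1. The excess of replicate 2 over the mean of replicates 1 and 3 ran from 0.64 for Retnlg to 1.88 for Mpo and Elane, with a median of 1.34. Ranked on this excess among all 19943 genes, 7 of the 10 were in the top 20, namely Mpo, Elane, S100a9, S100a8, Ltf, Ngp and Lcn2. The top 20 also held the neutrophil genes Ctsg, Ly6g, Prtn3, Ms4a3 and Cxcr2 and the basophil and mast cell markers Ms4a2 and Fcer1a. The rest, among them Cd24a, were in none of the gene lists. The SD of the unstimulated arrays had a median of 0.81 over the 10 genes, against 0.11 over all genes and 0.20 over the genes that fell by at least 1. The genes that fell by at least 1 had a smaller median change, -1.50 against -2.99 for the 10. The median unstimulated SD was 0.91 over the 9 basophil and mast cell markers and 0.40 over the 17 monocyte markers, so a wide spread was not particular to the 10. In the IL-18 arrays the median SD of the 10 was 0.13, against 0.08 over all genes and 0.13 over the genes that fell by at least 1. For each of the 10 the unstimulated SD was the larger. Over all genes, and over the genes that fell by at least 1, the unstimulated median SD was the larger too. Whether the IL-18 values of the 10 were at background cannot be read from centred values.

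With unstimulated replicate 2 left out, the limma fit called all 10 lower, with changes from -0.41 for Retnlg to -5.25 for Ngp. The same fit called 4408 of all 19943 genes lower, against 3332 with all arrays. As the 10 were selected on this contrast, nothing is read from their calls. The change of Retnlg without unstimulated replicate 2 was 1.5 times smaller on the log2 scale. For Mpo and Elane it was -2.60 and -2.26, for S100a8 and S100a9 -2.59 and -2.82, for Ltf -1.89 and for Camp -1.05.

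Markers of other cell types were read in the same arrays. The 17 measured monocyte markers all fell, with a median of -3.14, and 16 of them were highest in unstimulated replicate 3. The 17 include Itgam, the gene of CD11b, so the gates themselves select for its fall. Itgam had the largest decrease of the 17 (-5.32) and was the exception, highest in replicate 2. The mean of the 17 was 1.53, 1.40 and 2.03 in unstimulated replicates 1, 2 and 3. That of the 10 granule genes was 1.16, 2.56 and 1.32. Of 10 B and plasma cell markers, 8 fell and 9 were highest in unstimulated replicate 1. Basophil and mast cell markers came nearer, with 8 of 9 lower (median -2.70) and 8 of 9 highest in unstimulated replicate 2. In all 9 of them unstimulated replicate 1 was above replicate 3, as in Mpo and Elane. In IL-18 replicate 2 the mean of these 9 markers was -0.54 against -2.06 and -2.09 in replicates 1 and 3. The 10 granule genes had means of -1.14, -1.05 and -1.32 in IL-18 replicates 1 to 3. The median excess of IL-18 replicate 2 over the mean of replicates 1 and 3 was 1.43 for these markers. This excess was 0.65 for Mpo, 0.31 for Elane and 0.34 for Ngp. Its median over the 8 granule genes other than Mpo and Elane was 0.08. Elane was highest in IL-18 replicate 1, at -0.86 against -0.93 in replicate 2. Cpa3, the mast cell and basophil carboxypeptidase, read -3.83, -0.55 and -3.71 in the IL-18 arrays. With robust variance estimation the calls of Cpa3 and of Mcpt8, a basophil protease gene, ended (limma adjusted p 0.0537 and 0.0801).

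Genes of NK cell identity also read highest in unstimulated replicate 2, in 14 of 14, with a smaller median excess of 0.28, and all 14 fell, with a median of -1.14. Eosinophil markers fell in 5 of 7 (array means -0.25 to -0.12 in the IL-18 and 0.21 to 0.34 in the unstimulated group) and platelet markers in 5 of 6 (-0.36 to -0.20 and 0.30 to 0.53). Dendritic cell markers fell in 6 of 9 and rose in 2, erythroid markers fell in 1 of 4, and of 8 T cell markers 3 rose and none fell. The erythroid decrease was that of Slc4a1 (limma adjusted p 0.0489), whose groups overlapped. Its call ended under several omissions of a replicate (limma adjusted p up to 0.175). The groups of Xcr1, counted among the dendritic cell decreases, overlapped as well. The array means of the monocyte markers were -1.54 to -1.48 in the IL-18 group and 1.40 to 2.03 in the unstimulated group, those of basophil and mast cell markers -2.09 to -0.54 and 0.55 to 1.90, and those of B and plasma cell markers -0.57 to -0.26 and 0.21 to 0.85. The part of these cell types in the changes of the granule genes was not tested.

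**Figure D2:**
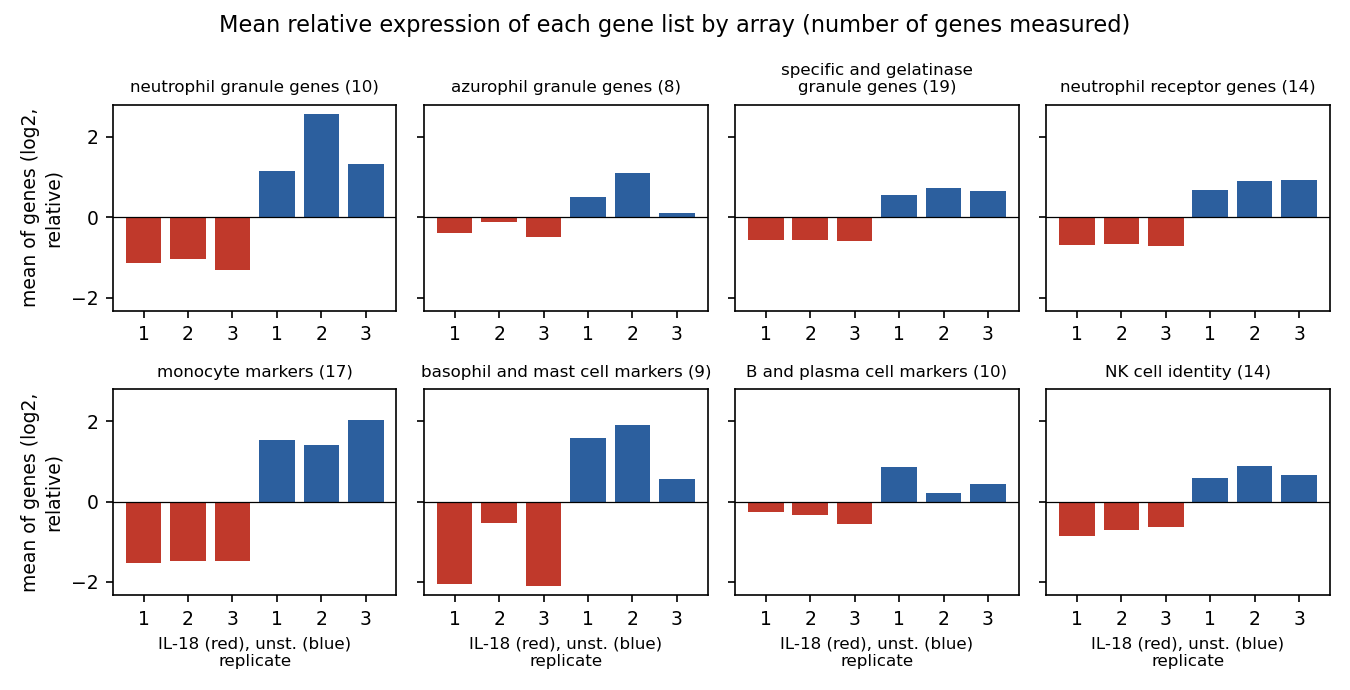
Mean relative expression (log2) over the measured genes of each list in each array, red for the 3 IL-18 and blue for the 3 unstimulated replicates, with the number of genes in brackets. The granule genes peak in unstimulated replicate 2 at 2.56, the monocyte markers in replicate 3 at 2.03, and the basophil and mast cell markers stand apart in IL-18 replicate 2 at -0.54.

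**Figure D3:**
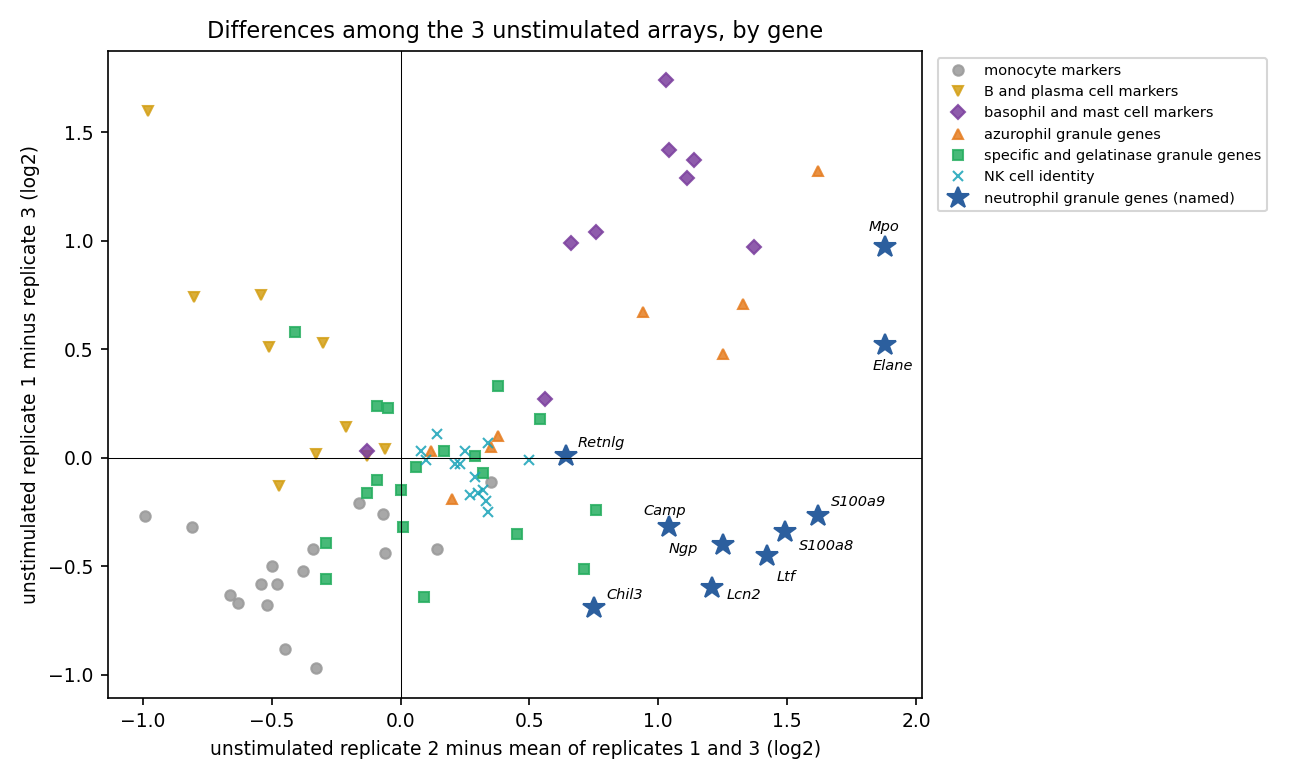
Each point is a gene, placed by the difference of unstimulated replicate 2 from the mean of replicates 1 and 3 (x axis, log2) and by replicate 1 minus replicate 3 (y axis, log2), with stars for the 10 granule genes. Mpo and Elane lie to the upper right, at 0.97 and 0.52 on the y axis. Most other azurophil granule genes and most basophil and mast cell markers lie to the upper right too. Ngp, Camp, Ltf, Lcn2, S100a8, S100a9 and Chil3 lie to the lower right, between -0.69 and -0.27.

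Azurophil granule genes outside the selection were highest in the same array as Mpo and Elane. The median of the 8 measured was -0.86, and 5 of them fell and none rose, where 16.7% of all genes fell. This list, like the other gene lists, was chosen with earlier results of these data known. All 8 were highest in unstimulated replicate 2, and in 7 of 8 replicate 1 was above replicate 3. Replicate 1 was above replicate 3 in 9 of 9 basophil and mast cell markers too. The same order was seen in 9 of 10 B and plasma cell markers and 9 of 14 mature neutrophil genes, but in 0 of 17 monocyte markers. Its share over all genes was not counted. Prtn3, which encodes proteinase 3, read 1.02, 1.99 and 0.31 in the unstimulated arrays and -0.64, -0.31 and -0.70 in the IL-18 arrays, and fell with a change of -1.65 ± 0.32 (limma adjusted p 0.00221). Ctsg, cathepsin G, read 1.27, 2.23 and -0.05 against -1.60, 0.05 and -1.90, so that unstimulated replicate 3 lay below IL-18 replicate 2 and the groups overlapped. It still fell, with a change of -2.30 ± 0.57 (limma adjusted p 0.00876). Serpinb1a, an inhibitor of these proteases, fell with -1.22 ± 0.24. With robust variance estimation 3 of the 5 calls ended, those of Prtn3, Ctsg and Ms4a3 (limma adjusted p 0.0539, 0.119 and 0.144). The call of Ms4a3, a gene named after its values were seen, also ended without IL-18 replicate 1 (0.0544) and without IL-18 replicate 3 (0.0696).

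Of 19 other genes of specific and gelatinase granules, 15 fell and 1 rose, and their median was -0.89. Lyz2, the lysozyme gene, which monocytes and macrophages also express, had the largest decrease at -7.16 ± 0.15, with values of 3.48, 3.39 and 3.88 in the unstimulated arrays. Ceacam1, an adhesion molecule found on many cell types, fell with -5.39 ± 0.15, and Hp, haptoglobin, with -2.02 ± 0.18. Lyz2, Ceacam1 and Hp were all highest in unstimulated replicate 3. Mmp8, neutrophil collagenase, read 0.55, 1.17 and 0.89 in the unstimulated arrays, highest in replicate 2, and fell with -1.47 ± 0.13. Mmp8 was added after its values were seen. Adam8, a surface protease that lymphocytes can express too, rose by 3.98 ± 0.13.

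The phagocyte oxidase, which makes superoxide, gave 3 lower genes, 1 higher and 1 that did not pass among 5 measured. Cybb, its catalytic subunit, fell with -6.15 ± 0.19 and was highest in unstimulated replicate 3 (2.81, 2.91 and 3.54), as monocyte markers were. Rac2 and Cyba fell with -0.54 ± 0.07 and -0.42 ± 0.07, while the cytosolic subunit gene Ncf1 rose by 0.86 ± 0.19 (limma adjusted p 0.00483).

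All 14 measured genes of neutrophil receptors fell, with a median of -1.30. Cxcr2, the receptor for neutrophil-attracting chemokines, fell with -3.65 ± 0.31 and had the same order of unstimulated arrays as Mpo, with 2.0, 2.89 and 1.31 in unstimulated replicates 1 to 3. Fcgr4, an IgG receptor shared with monocytes, fell with -4.59 ± 0.18, and Trem3 with -2.73 ± 0.17, both highest in unstimulated replicate 3. Ly6g, the surface antigen by which mouse neutrophils are usually identified, read 0.29, 1.89 and 0.59 in the unstimulated arrays and -0.29, -0.37 and -0.51 in the IL-18 arrays. Its change was -1.31 ± 0.32 (limma adjusted p 0.00791), a call that ended with robust variance estimation (0.0937). Csf3r, the receptor for G-CSF, fell with -1.85 ± 0.14 and was highest in unstimulated replicate 3 (0.82, 0.74 and 1.30). Ly6g and Csf3r were added after their values were seen.

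The list of other mature neutrophil genes had 14 measured, of which 9 fell and none rose (median -0.61). Ifitm6, an interferon-induced membrane protein gene, fell with -4.47 ± 0.17 and Pilra, an inhibitory receptor gene, with -3.90 ± 0.16, both highest in unstimulated replicate 3. Hdc, which makes histamine and is used by basophils as well and is also counted in that marker list, fell with -2.31 ± 0.25, with 1.71, 1.88 and 0.72 in the unstimulated arrays. Over these 5 groups of neutrophil genes, from azurophil granules to mature cells, 46 of 60 fell and 2 rose. Over all genes 16.7% fell and 19.7% rose. The groups were chosen with earlier results of these data known, so nothing is read from this count. Of the 60, 26 were highest in unstimulated replicate 2 and 23 in replicate 3.

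**Figure D4:**
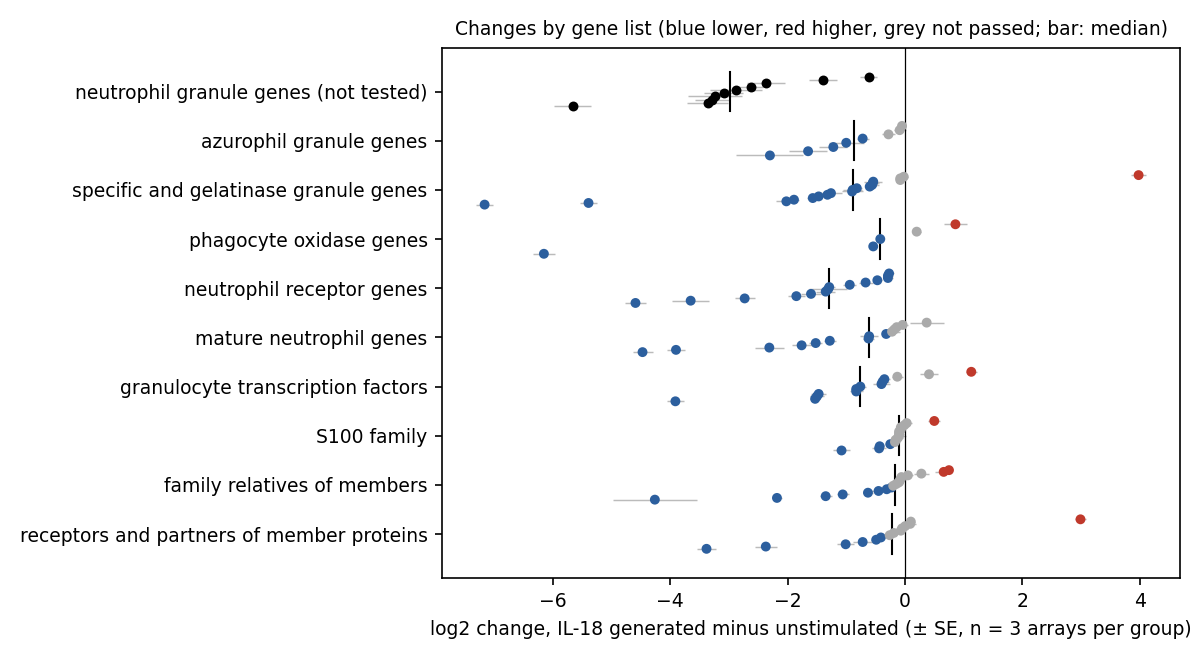
Log2 change between IL-18 generated and unstimulated cells for each measured gene, with its SE (n = 3 arrays per group) and the median of each list as a bar. The 10 granule genes, in black, were selected on this contrast, and in the other lists blue genes fell, red genes rose and grey genes did not pass the limma test. All 14 receptor genes lie below 0, whereas most S100 relatives lie close to 0.

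Transcription factors of the granulocyte lineage were measured in the same arrays. Of 13, 10 fell and 1 rose, and their median was -0.76. Spi1, which encodes PU.1, fell most, with -3.91 ± 0.14, followed by Runx1 (-1.53 ± 0.09), Lef1 (-1.50 ± 0.12) and Cebpa (-1.47 ± 0.13). Cebpe, the C/EBP factor needed for specific granules, fell with -0.83 ± 0.09, as did Klf5 (-0.83 ± 0.11) and the monocyte fate factor Irf8 (-0.76 ± 0.09). Smaller decreases were those of Kmt2e (-0.38 ± 0.10), Cebpb (-0.40 ± 0.14) and Gfi1 (-0.35 ± 0.10), a repressor required for neutrophil formation. Cebpg rose by 1.13 ± 0.09. Cebpd changed by -0.13 ± 0.09 and Myb by 0.41 ± 0.15, and neither passed (limma adjusted p 0.259 and 0.0603).

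Cebpb had a limma adjusted p of 0.0457, which rose to 0.12 without IL-18 replicate 2, 0.116 without IL-18 replicate 3, 0.151 without unstimulated replicate 1 and 0.17 without unstimulated replicate 3. Its call also ended with array median centring (limma adjusted p 0.0537) and quantile normalization (0.0516), and its groups overlapped. Gfi1, at 0.0208, rose to 0.0504 and 0.0908 without IL-18 replicates 1 and 2, and to 0.0806 and 0.0511 without unstimulated replicates 1 and 2. Myb passed without IL-18 replicate 1 (0.023) and without unstimulated replicate 2 (0.00589). Several of these factors, among them Runx1, Lef1, Gfi1 and Myb, are also expressed by lymphocytes.

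Relatives of the granule genes were read by family. Of 15 other S100 genes, 4 fell and 1 rose, with a median of -0.10, where 16.7% of all genes fell and 19.7% rose. S100a6 fell with -1.08 ± 0.14, S100a4 with -0.44 ± 0.12 and S100a13 with -0.43 ± 0.08, and S100a1 rose by 0.50 ± 0.10. The call of S100a4 ended without unstimulated replicate 1 (limma adjusted p 0.0659). Of 18 relatives of the other granule genes, 8 fell and 2 rose, and their median was -0.17. Trf, the transferrin gene and relative of Ltf, fell with -2.18 ± 0.09 and Cst3, cystatin C, with -1.35 ± 0.10. Prss34, a basophil serine protease also counted among the basophil markers, fell with -4.26 ± 0.72. Chid1, of the chitinase family, rose by 0.75 ± 0.07 and Orm3, a lipocalin relative, by 0.66 ± 0.14.

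Genes for receptors and partners of the granule proteins were measured in 14 cases, of which 6 fell and 1 rose, and their median was -0.22. Cd36, a scavenger receptor that binds S100 proteins, fell with -3.38 ± 0.17, Lrp1, an endocytic receptor, with -2.37 ± 0.19, and P2rx7 with -1.01 ± 0.14. Cd69, an early activation antigen for which S100a8 and S100a9 are described as ligands, rose by 2.99 ± 0.10. Tlr4, the main signalling receptor of calprotectin, read -0.23, 0.23 and -0.04 in the unstimulated arrays and 0.04, -0.15 and 0.08 in the IL-18 arrays and did not pass (limma adjusted p 0.983). Tlr4 was added after its values were seen.

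The nearest measured gene on either side of each granule gene in RefSeq order was compared in the same fit. S100a8 and S100a9 are each other's neighbours. Of the 18 other neighbours, 3 fell and 5 rose, with a median of -0.11. That is close to the shares over all genes, 16.7% lower and 19.7% higher. Prtn3, beside Elane, fell as given above, Ccrl2, beside Ltf, fell with -0.88 ± 0.08 and Chil4, a close relative beside Chil3, with -0.31 ± 0.09. Chil3 and Chil4 are similar in sequence, so probes may read both and their separate values are uncertain. S100a7a and Pglyrp4, which flank the calprotectin genes, changed by -0.16 ± 0.09 and -0.21 ± 0.08 and did not pass (limma adjusted p 0.193 and 0.061). Lpo, a peroxidase gene beside Mpo, changed by -0.20 ± 0.11 and did not pass (limma adjusted p 0.211), and Retnla, beside Retnlg, by -0.10 ± 0.07 (0.32). Nme6 and Cdc25a, which flank Camp, rose by 1.27 ± 0.08 and 0.52 ± 0.10, and Ptpn23 beside Ngp by 0.50 ± 0.09. The remaining increases were those of Dzip3 beside Retnlg (0.39 ± 0.12) and Ptges2 beside Lcn2 (0.34 ± 0.12). The calls of Chil4, Dzip3 and Ptges2 ended under several omissions of a replicate, with limma adjusted p values of up to 0.0947, 0.0902 and 0.155. Lpo passed without unstimulated replicate 2 (-0.33, limma adjusted p 0.0137), as did Pglyrp4 (0.0377), and S100a7a passed without unstimulated replicate 1 (0.0491).

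The median of the 10 genes in each array was -1.12, -0.97 and -1.35 in the IL-18 replicates and 1.19, 2.78 and 1.40 in the unstimulated replicates. Among the 10, S100a8 lay closest to this profile, with a root mean square difference of 0.11 over the 6 arrays, and Ngp and Retnlg farthest, with 1.38 and 1.22. Among genes outside the selection the closest were Cyp17a1 (0.34), Gm10522 (0.39), Hgf (0.40), Cd200r3 (0.43), C3ar1 (0.44), Kcnj8 (0.45), Cxcr2 (0.46) and Klf12 (0.47). Cyp17a1, a steroid hydroxylase gene, read 0.97, 2.01 and 1.60 in the unstimulated arrays. Cd200r3, a receptor gene of basophils and mast cells, read 1.93, 2.22 and 0.95, and C3ar1, the receptor for complement C3a, 2.06, 2.57 and 1.11. All 8 were highest in unstimulated replicate 2, and this likeness is a description over 6 arrays.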

How the data were processed

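The deposited table covers 28815 probe sets of 6 one-colour Affymetrix arrays, processed by the authors. They were treated as log2 values, which was read from the deposited values and is not stated. The largest range within a probe set was 7.77, and the median of each probe set across arrays was 0 (largest departure 5e-07). The labels do not state how the authors summarized and normalized the arrays, and the steps are otherwise not given in the sources used here. No detection calls were used, no filter on dim genes was possible, and the number of arrays limits the precision.

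The platform annotation gave 1 symbol to 21788 probe sets, several to 1597 and none to 5430, and the last 2 kinds were not used for genes. Probe sets of a gene were averaged, which gave 19943 genes. Array medians lay between -0.025 and 0.039. The comparison of groups used lmFit and eBayes of limma 3.58.1 (R 4.3.3) with no covariate, with Benjamini-Hochberg adjustment over all genes and calls at an adjusted p below 0.05. Tables and figures used Python 3.11.15, pandas 2.3.3, numpy 2.4.6 and matplotlib 3.10.9. Tested on simulated data for this contrast with 19943 genes, the fit recovered 53.7% of 67 genes with a log2 change of 0.5, 91% of 67 with a change of 1 and 100% of 66 with a change of 2. It called 8 unchanged genes. The simulated noise was normal and independent between genes, and only the 67, 67 and 66 genes were changed. In the real fit 36.4% of all genes were called, so these rates need not hold there. The alternatives were the replicate block, quantile normalization, median centring, array weights, robust eBayes, other handling of probe sets, a fold threshold and leaving out each array.

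The granule genes and all gene lists were chosen with earlier results of these data known. The rule for named genes took all 10 granule genes, up to 3 decreases and 2 increases that passed in each list, all transcription factors listed, the 8 genes nearest to the median profile, and the neighbours. Marker lists of other cell types are given by their counts, with few of the genes this rule takes. Motifs were searched in the RefSeq promoter table, in which all 10 genes were found.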

Additional observations from a re-analysis of the deposited data

How the results depend on the processing

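All 10 granule genes were called lower in each of the 13 alternative fits. The count stood at 9 with the added threshold of a log2 change of at least 1, which 3.24% of all genes passed. As the 10 were selected on this contrast in the same arrays, nothing is read from these counts. Of the 60 other neutrophil genes, 42 to 47 were lower in those fits, against 46, and 27 with that threshold. These 60 were chosen with earlier results of these data known, so nothing is read from their counts either. Ngp changed by -4.80 with quantile normalization, a move larger than its replicate SD, and the other 9 granule genes moved by less than theirs in every fit. The cause was not tested. Over all 19943 genes, the count of lower calls ran from 2651 without IL-18 replicate 2 to 4408 without unstimulated replicate 2. Of 100 other genes covered by the naming rule or added to it, 83 kept their side of the threshold in all 13 fits, and none reversed. In the remaining 17, 38 values lost and 7 gained the call. Whether replicate numbers pair the arrays was not settled. Deviations from the group means correlated across genes at 0.24, 0.01 and -0.02 for same-numbered arrays, and only IL-18 replicate 1 correlated best with its own number. The 3 deviations of a group depend on each other, so these correlations cannot decide it. With the replicate number as a block, 10 granule genes and 47 other neutrophil genes were lower, and of the other named genes Myb alone gained a call (limma adjusted p 0.0204). Arrays of 3 per group cannot tell variation between preparations from variation between hybridisations.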

Other observations

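The gene with the largest excess of unstimulated replicate 2 over the other unstimulated arrays was Car1, a carbonic anhydrase gene outside all lists, chosen after its values were seen. It read 0.32, 4.96 and 0.47 in unstimulated replicates 1, 2 and 3 and -0.43, -0.42 and -0.32 in the IL-18 replicates. The groups did not overlap, yet its change of -2.31 ± 0.96 (n = 3 arrays per group) did not pass (limma adjusted p 0.0874).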
